A study of Trichoderma guizhouense with 100 samples.

Results

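The deletion mutant ∆Tgace2 was compared with the wild type (WT) of the filamentous fungus Trichoderma guizhouense NJAU4742 after 72 h on cellulose. The comparison holds 6 of the 100 RNA libraries of the series, 3 of ∆Tgace2 and 3 of WT, described as biological repeats and grown first on glucose, washed and moved to minimal medium with cellulose as the carbon source. In ∆Tgace2 the coding region of 1 regulator gene was replaced by a hygromycin resistance cassette, and the labels name neither another clone nor a complemented strain. WT carries no cassette, so the deletion and whatever else came with transformation cannot be told apart here. Set beside this comparison further on are the deletion strains ∆Tgace1 and ∆Tgxyr1, made with the same cassette per the study's methods. Libraries grown on glucose or xylan, kept without carbon, or taken at earlier times on cellulose are also used. The members were taken from the column names alone, and all 11244 genes of the table were considered, of which 10026 were tested. Values are RPKM, reads scaled to the length of the transcript and to the number of mapped reads, so levels are per length, and the depth of the libraries is unknown.

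Trichoderma species feed on plant cell walls by secreting enzymes in stages. Endoglucanases cut inside the cellulose chain, exoglucanases (cellobiohydrolases) release cellobiose from its ends, polysaccharide monooxygenases break the chain by oxidation, and beta-glucosidases split cellobiose to glucose. In the related Trichoderma reesei these genes are switched on by the Zn2Cys6 regulator XYR1. The question put to these libraries is what happens to such genes, and to the rest of the transcriptome, in the deletion strain.

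The 3 ∆Tgace2 libraries were alike, with Pearson r of log2(RPKM + 1) between 0.977 and 0.985. The WT libraries were not. WT replicates 1 and 3 correlated at 0.961, but WT replicate 2 reached only 0.799 with replicate 1 and 0.768 with replicate 3. It correlated instead with the 2 WT libraries kept for 72 h without a carbon source, at 0.971 and 0.972, and the one at 0.972 was its closest library in the series. Its summed RPKM was also low, 724111, against 1548111 and 2053078 in the other WT libraries and 1634872 to 1966237 in ∆Tgace2. WT replicates 1 and 3 were each closer to the ∆Tgace2 libraries, at 0.899 to 0.936, than to WT replicate 2. Each result is therefore given with WT replicate 2 (3 against 3 libraries) and without it (3 against 2), and why this library stands apart was not tested.

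**Figure D1:**
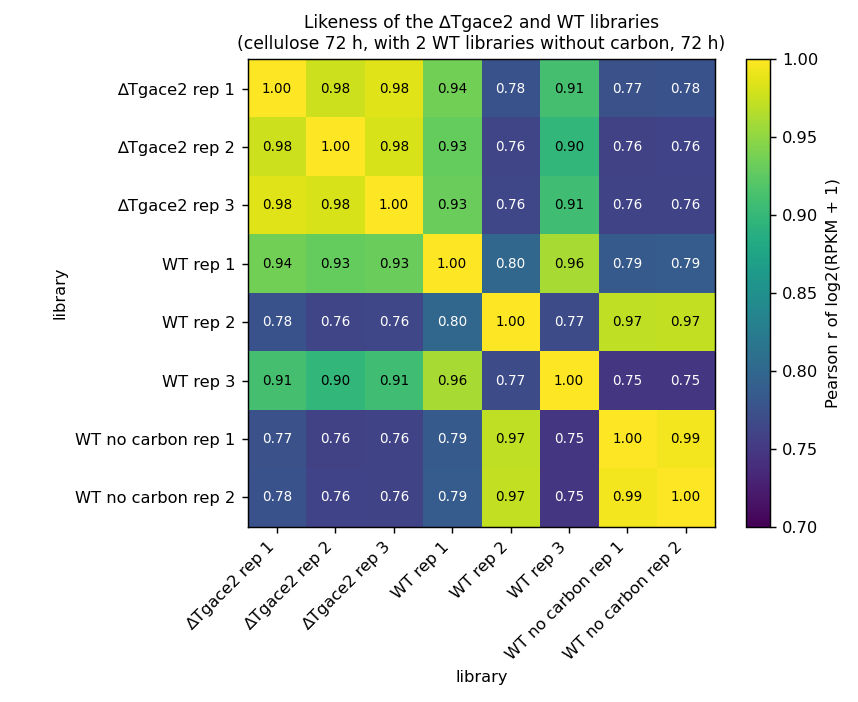
Pearson r of log2(RPKM + 1) over the 10026 tested genes between the 3 ∆Tgace2 and 3 WT libraries on cellulose at 72 h and the 2 WT libraries without carbon at 72 h; colour and number give r. WT replicate 2 stands at 0.971 and 0.972 with the libraries without carbon, and at 0.799 and 0.768 with the other WT libraries.

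A gene was called where limma's adjusted p was at most 0.01, the log2 difference at least 2 in size and the mean of the higher group above 2 RPKM. With all 6 libraries, 391 genes were higher in ∆Tgace2 (3.90% of the genes tested) and 160 were lower (1.60%). Without WT replicate 2 the counts were 316 higher (3.15%) and 197 lower (1.96%). The shared part was smaller than either list: 232 genes were higher both ways (2.31%) and 105 were lower both ways (1.05%), and no gene was called in opposite directions. Of the genes tested, 17.0% had all ∆Tgace2 values above all 3 WT values and 13.5% had them all below. In the 159 genes that were higher only with WT replicate 2, that library held the lowest of the WT values in all 159. In the 55 genes that were lower only with it, it held the highest WT value in 53. Such genes were chosen by what leaving that library out did, so this placement follows largely from the choice. Among the 9299 genes called neither way, it held the lowest WT value in 3493 and the highest in 4165. The calls, the standard errors (given below after ±) and the adjusted p borrow the spread of all 34 groups of the series. They do not measure the spread among the 3 WT libraries here. The errors can be too small for genes where WT replicate 2 lies far from the other WT libraries. Fitted on the 2 groups alone, limma called 0 genes with WT replicate 2 (2021 at an unadjusted p below 0.05) and 13 higher and 9 lower genes without it (3496 at an unadjusted p below 0.05).

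**Figure D2:**
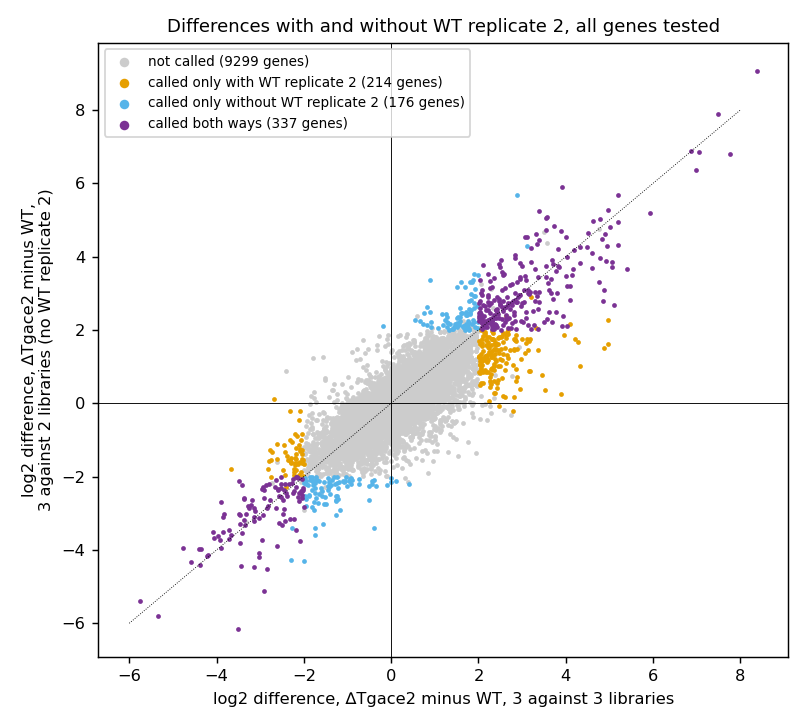
Log2 difference of ∆Tgace2 minus WT for every tested gene, with 3 WT libraries (x axis) and without WT replicate 2 (y axis); colours give the call, and the dotted line marks equal values. The 337 genes called both ways lie past 2 or -2 on both axes, and the 214 called only with WT replicate 2 lie mostly nearer to 0 on the y axis.

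The regulators of cellulase genes examined were not called. TgXYR1 (OPB38038) stood at 62.1, 79.1 and 67.5 RPKM in ∆Tgace2, against 143, 36.3 and 17.7 RPKM in WT, a log2 difference of 0.59 ± 0.40 (SE, adjusted p = 0.246), or 0.44 ± 0.45 without WT replicate 2. The ∆Tgace2 values lay inside the WT range. OPB38568, the T. guizhouense CLR-2 homolog, an activator of cellulase genes in Neurospora crassa, had 20.4, 37.6 and 25.1 RPKM in ∆Tgace2 and 41.2, 4.01 and 31.3 RPKM in WT, which also overlap, and its difference of 0.55 ± 0.38 became -0.41 ± 0.34 without WT replicate 2. The velvet gene vel1 (OPB39752) differed by -0.25 ± 0.24, and by -0.51 ± 0.25 without WT replicate 2. For the methyltransferase gene LAE1 (OPB44277) these values were -0.12 ± 0.37 and -0.86 ± 0.37 (adjusted p = 0.0569).

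HAP5 (OPB46563), a subunit of the CCAAT-binding complex, was the regulator with the steadiest difference. It had 41.9, 28.4 and 35.9 RPKM in ∆Tgace2, against 73.6, 121 and 96.5 RPKM in WT, with no overlap. The log2 difference of -1.42 ± 0.13 (adjusted p = 2e-14), or -1.25 ± 0.14 without WT replicate 2 (adjusted p = 2.11e-11), was below the size asked of a call. In the other conditions its 18 ∆Tgace2 values ran from 25.4 to 66.0 RPKM and its 25 WT values from 69.5 to 129 RPKM, again without overlap.

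The main cellulase genes were high in all ∆Tgace2 libraries, high or intermediate in WT replicates 1 and 3, and almost silent in WT replicate 2. The exoglucanase gene cbh1 (OPB45635) had 4176, 8344 and 7204 RPKM in ∆Tgace2, against 4670, 0.972 and 895 RPKM in WT. Its log2 difference was 4.96 ± 1.19 (adjusted p = 0.00052) with all libraries and 1.62 ± 0.99 (adjusted p = 0.199) without WT replicate 2. The exoglucanase gene cbh2 (OPB43438) followed it, with 2424, 4864 and 3679 RPKM in ∆Tgace2 and 2313, 0.127 and 661 RPKM in WT. Its difference was 4.87 ± 1.13 (adjusted p = 0.000342) and, without WT replicate 2, 1.51 ± 0.90 (adjusted p = 0.185). So the call on both exoglucanases rests on the WT library that stands apart. In the WT libraries without carbon cbh1 (OPB45635) was at 0.137 and 0.207 RPKM and cbh2 was listed at 0.

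Among the cellulases, only 2 endoglucanases rose with and without that library. The GH12 endoglucanase OPB41394 had 164, 1060 and 608 RPKM in ∆Tgace2, against 59.8, 0 and 22.0 RPKM in WT. It rose by 5.41 ± 0.83 on the log2 scale (adjusted p = 2.33e-07), and by 3.67 ± 0.81 (adjusted p = 0.000197) without WT replicate 2. The EG-II type endoglucanase OPB43431 had 264, 930 and 510 RPKM in ∆Tgace2 and 168, 0 and 30.3 RPKM in WT, a rise of 4.85 ± 0.81, or 2.79 ± 0.73 without WT replicate 2. Other settings, such as leaving out a further library, moved the differences without WT replicate 2. That of OPB43431 then ran from 1.572, below the size asked of a call, to 3.999, and that of OPB41394 from 2.965 to 4.427. In both genes all ∆Tgace2 values were above all WT values, and ∆Tgace2 replicate 1 was the lowest of its group. Another gene of the EG-II type, OPB37031, behaved otherwise: its 60.4, 92.4 and 95.8 RPKM in ∆Tgace2 lay between WT replicates 3 and 1 (36.7 and 193 RPKM), and it was not called either way (2.08 ± 0.74 and -0.06 ± 0.60). Of the 5 endoglucanases tested, 2 rose both ways (2.31% of all genes) and none fell.

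Among the monooxygenases, cel61b (OPB46655) had 102, 722 and 366 RPKM in ∆Tgace2 and 86.9, 0.199 and 49.9 RPKM in WT. It passed the test with all libraries (4.11 ± 0.96) and not without WT replicate 2 (2.17 ± 0.95, adjusted p = 0.0628). For cel61a (OPB41190), 210, 336 and 365 RPKM in ∆Tgace2 fell within the WT range of 0.805 to 524 RPKM (2.28 ± 0.91 and -0.26 ± 0.76). None of the 4 monooxygenases was called both ways.

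Of the 11 beta-glucosidase genes, 4 were higher and 1 was lower with all libraries (3.90% and 1.60% of all genes). None was called without WT replicate 2. BGL1 (OPB36250) had 55.8, 133 and 83.9 RPKM in ∆Tgace2, against 76.8, 0.327 and 7.42 RPKM in WT, with differences of 3.18 ± 0.63 and 1.76 ± 0.60. The intracellular-type GH1 gene BGL2 (OPB39337) had 1337, 2085 and 1636 RPKM in ∆Tgace2, against 1279, 7.82 and 2411 RPKM in WT. Its difference of 2.46 ± 0.78 became -0.08 ± 0.54 without WT replicate 2. The GH3 gene OPB41313 went the other way, at 3.05, 2.69 and 2.60 RPKM in ∆Tgace2 and 7.75, 19.0 and 23.9 RPKM in WT. Its groups did not overlap, and its difference was -2.12 ± 0.20, or -1.97 ± 0.22 without WT replicate 2, just under the size limit.

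Xylan is the main hemicellulose that accompanies cellulose in plant walls, and its enzymes are often expressed with the cellulases. Of the 8 endoxylanase genes tested, 2 were higher with all libraries (3.90% of all genes) and none without WT replicate 2. Of the 8, 1 was lower both ways (1.05% of all genes). The GH11 xylanase OPB41202 had 822, 906 and 943 RPKM in ∆Tgace2, against 1371, 0 and 342 RPKM in WT, with differences of 3.52 ± 1.10 and 0.37 ± 0.90. The gene that fell both ways was OPB46017, annotated as xylanase 1, at 5.64, 1.31 and 1.92 RPKM in ∆Tgace2 and 132, 1.45 and 49.6 RPKM in WT. It fell by 2.84 ± 0.69 on the log2 scale (adjusted p = 0.000635), and by 4.53 ± 0.63 (adjusted p = 2.29e-08) without WT replicate 2. Xylanase 2 (OPB43840) ranged from 84.0 to 2620 RPKM within ∆Tgace2 and was not called (2.94 ± 1.02 and 1.55 ± 1.08).

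Among the 14 genes for xylan side chains and xylooligomers tested, 2 rose both ways (14.3%, beside 2.31% of all genes). The alpha-N-arabinofuranosidase OPB38106 had 45, 33.6 and 46.6 RPKM in ∆Tgace2, against 19.3, 13.8 and 0.129 RPKM in WT (2.60 ± 0.51 and 3.15 ± 0.55). The GH43 gene OPB44077 had 51.4, 63.3 and 58.2 RPKM in ∆Tgace2 and 16.6, 11.8 and 9.61 RPKM in WT (2.13 ± 0.25 and 2.10 ± 0.28). For the acetylxylan esterase axe1 (OPB40352) the sign of the estimate turned, at 1.95 ± 1.14 with WT replicate 2 and -1.35 ± 0.93 without it, and neither passed the test. Its level was 416, 419 and 455 RPKM in ∆Tgace2, against 1812, 0.152 and 664 RPKM in WT.

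Of 20 enzymes of mannan, galactan and xyloglucan tested, 6 were higher with all libraries (3.90% of all genes) and 4 both ways (2.31% of all genes), and none was lower. The clearest was OPB38657, a GH2 protein annotated as beta-galactosidase or beta-glucuronidase, with 71.2, 89.7 and 66.6 RPKM in ∆Tgace2 and 3.92, 0.740 and 0.516 RPKM in WT (5.02 ± 0.49 and 4.80 ± 0.55). The GH2 beta-mannosidase OPB43763 had 591, 728 and 460 RPKM in ∆Tgace2, against 148, 46.6 and 49.2 RPKM in WT (3.04 ± 0.55 and 2.75 ± 0.61). The xyloglucanase OPB46497 had 95.8, 191 and 148 RPKM in ∆Tgace2, against 51.6, 0.0433 and 12.97 RPKM in WT (3.94 ± 0.56 and 2.37 ± 0.47). The GH35 beta-galactosidase BGA1 (OPB41632) rose both ways by 2.15 ± 0.28 and 2.25 ± 0.31. In all 4 genes every ∆Tgace2 value was above every WT value. The median log2 difference over the list was 0.63, and 0.69 without WT replicate 2, beside 0.065 and 0.085 over all genes tested.

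**Figure D3:**
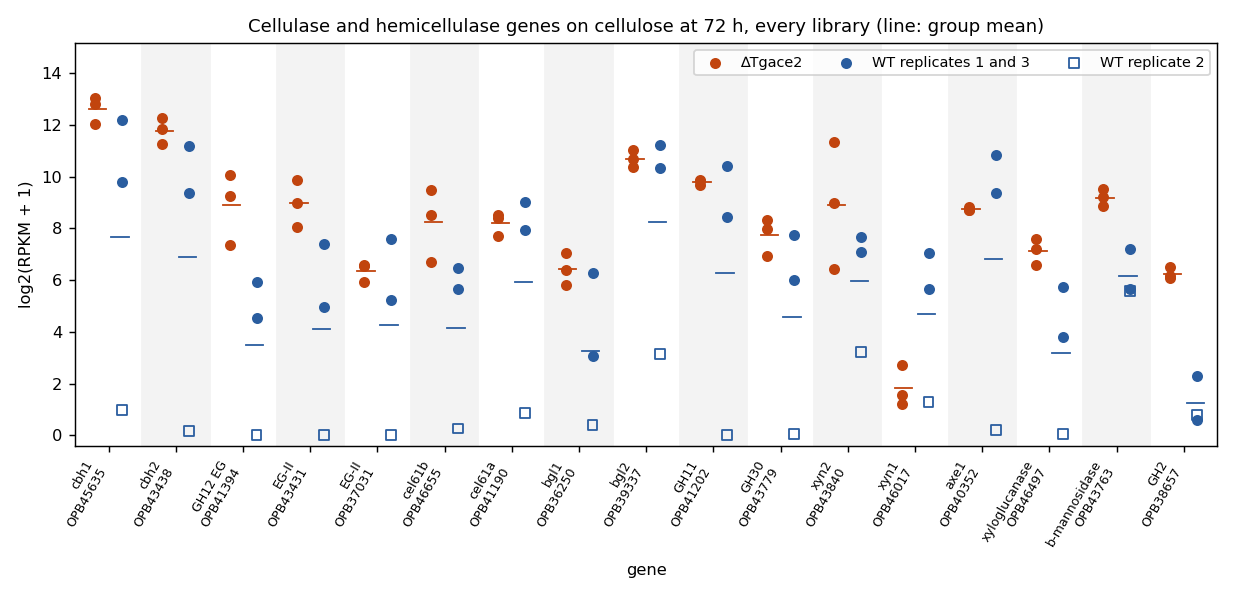
Log2(RPKM + 1) of 17 cellulase and hemicellulase genes in each library on cellulose at 72 h, with ∆Tgace2 (filled, left), WT replicates 1 and 3 (filled, right) and WT replicate 2 (open square); short lines are group means. WT replicate 2 lies near 0 for most genes, WT replicates 1 and 3 span or overlap the ∆Tgace2 points for cbh1, BGL2 and cel61a among others, and xyn1 has ∆Tgace2 far below WT replicates 1 and 3.

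Of 12 swollenin, expansin-like and CIP genes, whose proteins act with cellulases on the wall, 4 were higher with all libraries (3.90% of all genes) and 1 both ways (2.31% of all genes). CIP1 (OPB41189), a secreted protein found with cellulases, had 225, 371 and 397 RPKM in ∆Tgace2, against 411, 0.183 and 144 RPKM in WT, with differences of 2.96 ± 0.95 and 0.40 ± 0.81. The expansin OPB44083 had 300, 569 and 488 RPKM in ∆Tgace2 and 165, 31.5 and 204 RPKM in WT, higher in every ∆Tgace2 library, and passed only with all libraries (2.08 ± 0.47, and 1.24 ± 0.48 without WT replicate 2). The gene that rose both ways was the MRSP1 type expansin-like gene OPB46883, with 4.62, 37.7 and 27.2 RPKM in ∆Tgace2 and 2.55, 0 and 0 RPKM in WT (3.58 ± 0.52 and 3.28 ± 0.58).

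None of the 6 genes of pentose catabolism, which takes up xylose and arabinose released from hemicellulose, was called. Xylitol dehydrogenase XDH1 (OPB44156) had 29.1, 59.1 and 31.1 RPKM in ∆Tgace2, against 85.2, 293 and 82.0 RPKM in WT, without overlap (-1.73 ± 0.35, adjusted p = 3.91e-05, and -1.13 ± 0.35 without WT replicate 2, the highest library). L-arabinitol 4-dehydrogenase (OPB44279) had 9.89, 11.1 and 9.14 RPKM in ∆Tgace2 and 31.1, 90.1 and 21.8 RPKM in WT (-1.88 ± 0.32, adjusted p = 2.58e-06, and -1.30 ± 0.33 without WT replicate 2, again the highest). Both differences fell short of the size limit. D-xylose reductase xyl1 (OPB37877) differed by 0.94 ± 0.30, and by 0.56 ± 0.32 (adjusted p = 0.164) without WT replicate 2.

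The largest rise among genes with an annotated function belonged to OPB45490, a succinate-semialdehyde dehydrogenase of the Uga2 type, the last step of the route that turns gamma-aminobutyrate (GABA) into succinate. It had 457, 498 and 571 RPKM in ∆Tgace2, against 7.30, 1.87 and 1.31 RPKM in WT. The difference was 7.06 ± 1.004 (adjusted p = 3.09e-08), and 6.86 ± 1.13 without WT replicate 2. The gene for the preceding step moved the opposite way. The 4-aminobutyrate aminotransferase OPB37206 had 46.2, 29.0 and 12.4 RPKM in ∆Tgace2 and 455, 69.9 and 277 RPKM in WT, a fall of 2.96 ± 0.54, or 3.74 ± 0.58 without WT replicate 2.

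A set of 3 enzymes around pyruvate rose together, with the groups apart in each, which the rule for naming the largest rises asks for. Lactate dehydrogenase (OPB42830), which interconverts pyruvate and lactate, had 477, 596 and 531 RPKM in ∆Tgace2, against 9.20, 27.5 and 9.59 RPKM in WT (5.20 ± 0.67 and 5.68 ± 0.75). Phosphoenolpyruvate synthase (OPB42829), whose identifier is next to it in number, had 294, 316 and 286 RPKM in ∆Tgace2 and 7.19, 14.1 and 9.23 RPKM in WT (4.79 ± 0.65 and 5.03 ± 0.73). Pyruvate decarboxylase (OPB45520), the first step from pyruvate to ethanol, had 132, 171 and 141 RPKM in ∆Tgace2, against 3.10, 6.06 and 2.62 RPKM in WT (4.98 ± 0.55 and 5.27 ± 0.61). For these 3 genes WT replicate 2 was the highest WT library and still far below ∆Tgace2. A putative monocarboxylate transporter (OPB37289) rose too, with 131, 182 and 96.5 RPKM in ∆Tgace2 and 28.5, 2.03 and 0 RPKM in WT (4.89 ± 0.62 and 4.61 ± 0.69). Genes of the glyoxylate cycle and gluconeogenesis did not follow: of 7 tested, none was called in either direction.

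Another set of rises was largest against WT replicates 1 and 3, and these genes were also high in WT replicate 2. Alcohol oxidase AOX1 (OPB41235), a peroxide-forming enzyme, had 330, 537 and 276 RPKM in ∆Tgace2, against 22.2, 368 and 0.649 RPKM in WT. The difference was 3.92 ± 1.05, and 5.89 ± 1.06 without WT replicate 2. With 368 RPKM, WT replicate 2 lay inside the ∆Tgace2 range for this gene, so the groups were not apart. Catalase (OPB40299), which breaks down hydrogen peroxide, had 88.6, 101 and 71.8 RPKM in ∆Tgace2 and 2.24, 38.6 and 2.31 RPKM in WT (3.54 ± 0.61 and 4.74 ± 0.61). Sulfite oxidase (OPB40298), next to it by identifier, rose alike (3.58 ± 0.66 and 5.09 ± 0.61). OPB46155, annotated as the ortholog of QI74, had 612, 665 and 574 RPKM in ∆Tgace2, against 15.99, 436 and 19.0 RPKM in WT (3.54 ± 0.61 and 5.06 ± 0.55). In the WT libraries without carbon these 4 genes ran from 46.5 RPKM (OPB40298) to 383 RPKM (OPB41235). So WT replicates 1 and 3 were the low libraries for these genes.

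Chitinases and glucanases act on the walls of fungi. Of 22 chitinases tested, 4 rose both ways (18.2%, beside 2.31% of all genes) and none fell. CHI18-14 (OPB40629) had 60.7, 42.7 and 63.6 RPKM in ∆Tgace2, against 12.9, 12.2 and 1.02 RPKM in WT (2.96 ± 0.42 and 3.40 ± 0.46). The GH18 gene OPB40749 had 25.3, 33.6 and 34.9 RPKM in ∆Tgace2, against 4.48, 75.0 and 0 RPKM in WT, so WT replicate 2 was above ∆Tgace2 there and passing the test (2.10 ± 0.56, and 3.77 ± 0.43 without it) did not mean that the groups were apart. CHI18-15 (OPB37700), with 18.9, 31.2 and 23.9 RPKM in ∆Tgace2 and 4.52, 59.6 and 0.427 RPKM in WT, passed only without WT replicate 2 (3.16 ± 0.53, and 1.69 ± 0.59 with it).

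Among 33 glucanases that cut beta-1,3- or alpha-1,3-glucan, 5 rose both ways (15.2%, beside 2.31% of all genes) and none fell. The GH71 gene OPB38608 had 41.9, 199 and 103 RPKM in ∆Tgace2, against 10.7, 3.50 and 1.13 RPKM in WT (4.32 ± 0.68 and 4.27 ± 0.76). Another GH71 gene, OPB40799, had 144, 1057 and 346 RPKM in ∆Tgace2 and 46.7, 11.2 and 44.6 RPKM in WT (3.66 ± 0.56 and 3.01 ± 0.60). The median log2 difference of the glucanases was 0.69, and 0.30 without WT replicate 2. None of the 11 chitin and glucan synthases, which build the wall, was called.

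Hydrophobins are small secreted proteins that coat hyphae and spores. With other small secreted cysteine-rich proteins they gave 13 rises among 83 genes tested (3.90% of all genes) and no falls. Of the 83, 7 rose both ways (8.43%, beside 2.31% of all genes). HFB3 (OPB45549) had 2967, 1687 and 1073 RPKM in ∆Tgace2, against 232, 3.93 and 180 RPKM in WT (4.88 ± 0.91 and 3.09 ± 0.90). The more abundant hydrophobin OPB38530 had 14190, 6471 and 5815 RPKM in ∆Tgace2 and 1630, 5.25 and 1722 RPKM in WT. It was higher in every ∆Tgace2 library but lost its call without WT replicate 2 (2.27 ± 0.94, adjusted p = 0.0475).

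Genes of iron uptake were grouped after their values were seen, because 3 of them stood among the rises. The siderophore transporter OPB45590 had 48.9, 234 and 142 RPKM in ∆Tgace2, against 5.21, 1.41 and 6.85 RPKM in WT (4.6 ± 0.34 and 4.09 ± 0.36). The iron transporter OPB41258 had 114, 370 and 186 RPKM in ∆Tgace2 and 25.5, 0 and 14.3 RPKM in WT (4.75 ± 0.71 and 3.31 ± 0.70). The ferrooxidoreductase OPB41257, next to it by identifier, had 19.0, 83.1 and 31.5 RPKM in ∆Tgace2, against 2.30, 0.0308 and 1.75 RPKM in WT (4.17 ± 0.59 and 3.65 ± 0.65). In each, ∆Tgace2 replicate 2 was the highest library and replicate 1 the lowest. Of 24 such genes tested, 5 were higher and 1 was lower both ways (2.31% and 1.05% of all genes), and the 5 include the 3 that prompted the list.

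Genes of growth gave few calls but shifted medians. The 91 cytosolic ribosomal protein genes tested had a median log2 difference of 1.25, and 0.83 without WT replicate 2. Of these genes, 1 was higher both ways (1.1%, beside 2.31% of all genes). Their summed level was 43880 to 45240 RPKM in ∆Tgace2, against 23580, 9765 and 28950 RPKM in WT. It was much the same in ∆Tgace1, at 43160 to 52190 RPKM, and the median log2 difference of ∆Tgace2 from ∆Tgace1 was -0.0223. The 33 genes of ribosome biogenesis had medians of 0.87 and 1.16, and 3 of them rose both ways (9.09%, beside 2.31% of all genes). The example with the largest difference was RRP9 (OPB40176), which processes pre-ribosomal RNA, at 37.4, 84.8 and 38.8 RPKM in ∆Tgace2 and 6.24, 11.3 and 2.59 RPKM in WT (2.89 ± 0.35 and 3.32 ± 0.38). Proteasome genes had negative medians of -0.63 and -0.77 over 36 genes. None was called lower, and 1 was called higher with all libraries (3.90% of all genes). Their summed level went against the median, at 9531 to 13720 RPKM in ∆Tgace2 and 7851, 2436 and 8364 RPKM in WT. Autophagy genes showed medians of 0.07 and 0.05 over 12 genes, and none was called.

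Of 45 heat shock and chaperone genes tested, 2 were higher and 1 was lower both ways (4.44% and 2.22%, beside 2.31% and 1.05% of all genes). Hsp30 (OPB45522), a small membrane heat shock protein in yeast, had 213, 205 and 226 RPKM in ∆Tgace2, against 15.2, 23.5 and 61.8 RPKM in WT (2.88 ± 0.65 and 2.76 ± 0.73). The small heat shock gene OPB43709 (Hsp26/Hsp42) had 886, 353 and 873 RPKM in ∆Tgace2, against 5431, 46.1 and 3045 RPKM in WT. It was called lower only without WT replicate 2 (-2.65 ± 0.56, and -0.50 ± 0.72 with it).

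Of 183 sugar transporters and permeases of the major facilitator superfamily (MFS), 5 rose both ways (2.73%, near the 2.31% of all genes) and none fell. OPB45642 had 28.8, 61.5 and 46.7 RPKM in ∆Tgace2, against 0.770, 1.397 and 0.803 RPKM in WT (4.50 ± 0.34 and 4.64 ± 0.39). The MFS permease OPB38132 had 25.9, 11.1 and 9.38 RPKM in ∆Tgace2 and 165, 1.48 and 525 RPKM in WT, and was lower only without WT replicate 2 (-4.30 ± 0.66). Of 49 amino acid and oligopeptide transporters, 2 rose and 3 fell both ways (4.08% and 6.12%, beside 2.31% and 1.05% of all genes). The oligopeptide transporter OPB45922 had 351, 932 and 809 RPKM in ∆Tgace2, against 58.9, 2.51 and 375 RPKM in WT (3.90 ± 0.59 and 2.10 ± 0.46). The peptide transporter MTD1 (OPB45599) fell, with 5.06, 14.8 and 6.95 RPKM in ∆Tgace2 and 58.1, 119 and 117 RPKM in WT (-3.37 ± 0.40 and -3.20 ± 0.45).

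The falls were fewer than the rises and less well annotated. Of the 105 genes lower both ways, 70 (66.7%) carried no functional description, against 87 (37.5%) of the 232 genes higher both ways and 48% of all genes tested. With all libraries, the largest annotated fall was that of the C2H2 zinc finger regulator OPB43096. It had 50.9, 58.3 and 54.4 RPKM in ∆Tgace2, against 1135, 1888 and 1089 RPKM in WT. It fell by 4.58 ± 0.39 on the log2 scale (adjusted p = 8.86e-16), and by 4.33 ± 0.43 without WT replicate 2, where OPB46017 and OPB42946 fell further. The gene next to it by identifier, OPB43097, annotated as the glycolytic enzyme triosephosphate isomerase, had 190, 143 and 182 RPKM in ∆Tgace2 and 1017, 317 and 2853 RPKM in WT (-2.505 ± 0.31 and -3.31 ± 0.27). Both genes had their groups apart with all libraries.

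Further falls brought genes from a moderate level close to 0. The Hsp70 family gene OPB41335 had 1.01, 2.47 and 0.388 RPKM in ∆Tgace2, against 25.0, 41.2 and 55.4 RPKM in WT (-4.21 ± 0.27 and -4.17 ± 0.30). The AAA family ATPase OPB41404 had 0.603, 1.35 and 0.975 RPKM in ∆Tgace2 and 18.7, 36.7 and 33.4 RPKM in WT (-3.92 ± 0.22 and -3.74 ± 0.25). The HET domain gene OPB43885, of a family known for incompatibility between fungal strains, had 0.207, 0.232 and 0 RPKM in ∆Tgace2, against 6.27, 47.9 and 10.9 RPKM in WT (-3.83 ± 0.27 and -3.03 ± 0.21). The kinesin light chain gene OPB40964 had 0.518, 0.718 and 0.905 RPKM in ∆Tgace2 and 9.94, 35.4 and 16.2 RPKM in WT (-3.48 ± 0.30 and -3.01 ± 0.31). WT replicate 2 was the highest library for OPB43885 and OPB40964, and each of the 4 falls was called both ways.

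Other falls concerned metabolic enzymes and a regulator. The chloroperoxidase gene OPB46006 had 6.08, 6.26 and 5.19 RPKM in ∆Tgace2, against 64.3, 47.1 and 138 RPKM in WT (-3.47 ± 0.34 and -3.80 ± 0.37). The carbon-nitrogen hydrolase OPB39473 had 10.4, 7.04 and 10.4 RPKM in ∆Tgace2 and 77.4, 109 and 128 RPKM in WT (-3.35 ± 0.27 and -3.31 ± 0.30). The 3-isopropylmalate dehydratase OPB38082, of leucine synthesis, had 81.5, 61.9 and 51.3 RPKM in ∆Tgace2, against 656, 114 and 554 RPKM in WT (-2.42 ± 0.39 and -3.22 ± 0.39). The NF-X1-type zinc finger gene OPB42946 had 2.02, 1.17 and 2.21 RPKM in ∆Tgace2 and 31.4, 2.90 and 115 RPKM in WT (-3.15 ± 0.44 and -4.47 ± 0.35). In the last gene and in OPB38082, WT replicate 2 was by far the lowest of the WT libraries, though still above ∆Tgace2.

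**Figure D4:**
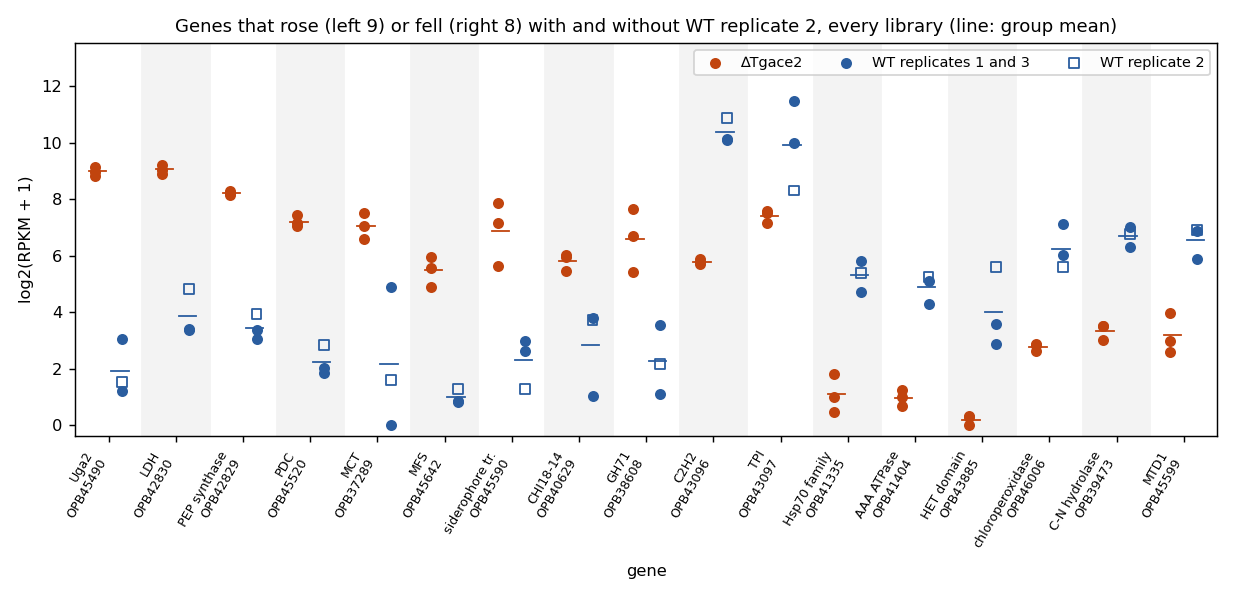
Log2(RPKM + 1) of 9 genes that rose and 8 that fell both with and without WT replicate 2, in each library on cellulose at 72 h, with ∆Tgace2 (filled, left), WT replicates 1 and 3 (filled, right) and WT replicate 2 (open square); short lines are group means. The groups are apart in every gene shown, from OPB45490 with 457 RPKM or more in ∆Tgace2 and 7.30 or less in WT, to OPB43096 with 58.3 RPKM or less in ∆Tgace2 and 1089 or more in WT. The largest rises and falls were named only where the groups did not overlap, so this separation follows in part from the choice.

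Whether these differences belong to cellulose at 72 h was examined with the 6 other conditions, glucose at 0 h and xylan and cellulose at earlier or equal times, which share no library with this comparison. Of the 105 genes lower both ways, 77 (73.3%) were also lower on xylan at 72 h, which is 19.2% of the 400 genes called lower there (3.99% of the genes tested). On cellulose at 24 h 59 (56.2%) were also lower, 17.1% of the 345 called there (3.44%), and on glucose at 0 h 33 (31.4%), 23.6% of the 140 called there (1.40%). Of the 232 genes higher both ways, 108 (46.6%) were higher on xylan at 72 h, 28.5% of the 379 called there (3.78%). On cellulose at 24 h 102 (44.0%) were higher, 13.5% of the 754 called there (7.52%), and on glucose at 0 h 41 (17.7%), 31.1% of the 132 called there (1.32%). At 4 h and 24 h on xylan and at 4 h on cellulose, 66, 44 and 59 of the falls were lower, where 2.40%, 1.73% and 1.79% of all genes were called lower. In the same conditions 79, 58 and 75 of the rises were higher, where 2.39%, 1.48% and 2.27% of all genes were called higher. At the extremes, 12 of the falls and 15 of the rises were called in the same direction in all 6 other conditions. For 11 falls and 66 rises this held in none of them. The matching shares of all genes tested were not counted, so these counts have no background to be set beside.

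Lactate dehydrogenase, phosphoenolpyruvate synthase and pyruvate decarboxylase were higher in all 6 other conditions, with log2 differences from 2.31 (OPB45520, xylan at 24 h) to 5.86 (OPB42830, cellulose at 4 h). The C2H2 gene OPB43096, OPB41335 and OPB41404 were lower in all 6, with OPB43096 at -6.22 on xylan at 72 h. The Uga2 gene OPB45490 was different. It rose on cellulose only, by 3.27 at 24 h and 7.06 at 72 h, and differed by 0.44 on xylan at 72 h.

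The difference between conditions was tested as an interaction, where effect means the difference of ∆Tgace2 from WT, whatever its cause. For OPB45490 the effect on cellulose at 72 h exceeded that on xylan at 72 h by 6.62 (adjusted p = 0.000418) and that on glucose by 6.92 (adjusted p = 0.000297). The expansin-like gene OPB46883 exceeded both by 3.58 and 3.60 (adjusted p = 0.000239 and 0.000297). Xylanase 1 (OPB46017) had opposite effects on the polymers, lower on cellulose at 72 h and higher by 4.50 on xylan at 72 h, and the interaction was -7.34 (adjusted p = 3.59e-08). The aminotransferase OPB37206 did the same, with 3.04 on xylan at 72 h and an interaction of -6.002 (adjusted p = 1.23e-08). The chitinase CHI18-14 (OPB40629) changed sign with time on cellulose, at -3.06 at 24 h, and the interaction with 72 h was 6.02 (adjusted p = 9.3e-12). Without WT replicate 2 these interactions kept their sign and their call. Over all genes, 217 interactions with xylan at 72 h were positive and 49 negative (2.16% and 0.489%), and without WT replicate 2 these counts were 299 and 234 (2.98% and 2.33%). The interactions with glucose were positive in 2.54% and negative in 0.688% of the genes tested, and without WT replicate 2 in 1.91% and 0.928%. Those with cellulose at 24 h were positive in 1.46% and negative in 2.59%, and without WT replicate 2 in 4.30% and 7.61%.

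**Figure D5:**
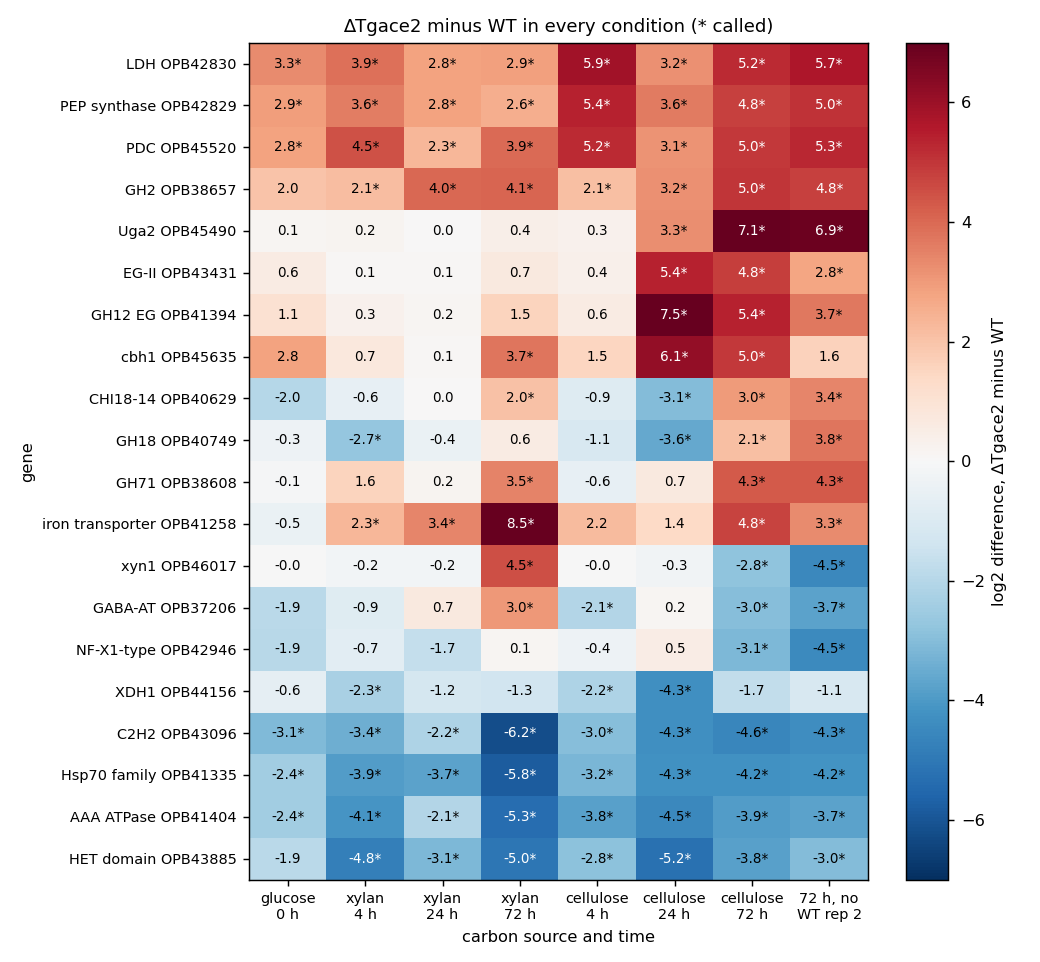
Log2 difference of ∆Tgace2 minus WT for 20 genes in the 7 conditions of the series that hold both strains, with cellulose at 72 h also shown without WT replicate 2; colour and number give the difference and a star marks a call. The pyruvate genes at the top and the 4 genes at the bottom keep their sign in every column, and xyn1, GABA-AT and CHI18-14 are among those that change sign.

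The other deletion strains were set beside ∆Tgace2. For OPB43096 and OPB41404 they were low as well. OPB43096 was at 22.3, 26.5 and 27.5 RPKM in ∆Tgace1 and at 47.4, 50.9 and 37.3 RPKM in ∆Tgxyr1 on cellulose at 72 h, beside 50.9, 58.3 and 54.4 RPKM in ∆Tgace2, where WT had at least 1089 RPKM. OPB41404 was at or below 0.800 RPKM in ∆Tgace1 and 0.227 RPKM in ∆Tgxyr1. Over the 105 falls, all 3 ∆Tgace1 libraries lay below all 3 WT libraries in 90 genes, and all 3 ∆Tgxyr1 libraries in 89, beside 12.9% and 18.0% of all genes. Over the 232 rises they lay above all WT libraries in 149 and 138 genes, beside 16.5% and 19.7% of all genes. The falls and rises were chosen against these same WT libraries.

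The same was seen outside cellulose at 72 h. In 20 of the 105 falls (19.0%), every one of the 63 libraries of the 3 deletion strains from other times and substrates lay below every one of 25 WT libraries, against 28 genes (0.279%) of all those tested. OPB41404, OPB43885 and OPB40964 were among the 20. For OPB41404 the 18 ∆Tgace2 values outside cellulose at 72 h ran from 0.239 to 3.45 RPKM and the 25 WT values from 11.3 to 59.3 RPKM. For these genes the deletion in ∆Tgace2 and any other difference between WT and all the deletion strains cannot be told apart. Of the rises, 1 of 232 (0.431%) had all 63 libraries above all 25 WT libraries, against 1 gene (0.00997%) of all those tested.

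The comparison of ∆Tgace2 with ∆Tgace1 uses no WT library. It called 351 genes higher in ∆Tgace2 (3.50%) and 22 lower (0.219%). Of the 232 genes higher than in WT both ways, 15 were also higher than in ∆Tgace1 and 1 was lower, and of the 105 lower than in WT, 1 was also lower than in ∆Tgace1 and 3 were higher. The cellulases were not called between the mutants, with 1 exception. The exoglucanase cbh1 had 4176, 8344 and 7204 RPKM in ∆Tgace2, against 20430, 19980 and 3948 RPKM in ∆Tgace1, a difference of -0.89. The exception was the EG-II type gene OPB37031, at 60.4, 92.4 and 95.8 RPKM in ∆Tgace2 and 843, 767 and 138 RPKM in ∆Tgace1 (-2.45). ∆Tgace1 replicate 3 was the lowest of its group for these genes, and without it 42 genes in place of 22 were lower in ∆Tgace2.

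Genes that set ∆Tgace2 apart from both WT and ∆Tgace1 included the esterase OPB44780. It had 611, 423 and 604 RPKM in ∆Tgace2, against 145, 126 and 1.38 RPKM in ∆Tgace1 and 26.4, 1.47 and 60.2 RPKM in WT, with differences of 3.93 from ∆Tgace1 and 5.07 from WT, or 3.72 without WT replicate 2. The LysM domain gene OPB45519, of a chitin-binding protein family, had 1446, 1235 and 2209 RPKM in ∆Tgace2, against 691, 680 and 19.9 RPKM in ∆Tgace1 and 97.6, 0.587 and 617 RPKM in WT (2.88 and 5.11, and 2.68 from WT without WT replicate 2). OPB37628, an NADH dehydrogenase, had 75.1, 89.5 and 81.9 RPKM in ∆Tgace2 and lay at 17.1 to 20.4 RPKM in ∆Tgace1 and 1.37 to 22.2 RPKM in WT (2.04 from ∆Tgace1, and 3.14 or 2.15 from WT with and without WT replicate 2). In all 3 genes every ∆Tgace2 library was above every library of ∆Tgace1 and WT. In OPB44780 and OPB45519, ∆Tgace1 replicate 3 was far below replicates 1 and 2, so their differences from ∆Tgace1 lean on that library. Their differences without it are not given here. Leaving it out gave 325 genes higher than in ∆Tgace1, 282 of them among the 351. Lactate dehydrogenase (OPB42830) was not called between the mutants, at 477, 596 and 531 RPKM in ∆Tgace2 and 274, 188 and 98.6 RPKM in ∆Tgace1, a difference of 1.62.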

How the data were processed

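RNA was measured by sequencing of polyadenylated transcripts. Per the study's methods, the authors filtered the reads, aligned them with TopHat2 and computed expression with Cufflinks and Cuffnorm. They deposited 1 table of RPKM values for 11244 genes and 100 libraries. Versions, the annotation release and the scaling behind these values are not given in the sources used here. RPKM holds no counts, so no counting error can be given, and a value of 0 is only listed as 0. Summed RPKM ran from 553844 to 3295522 per library. TgACE1 is not analysed here, and the gene deleted in ∆Tgace2 is not reported here.

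Every column was matched to its sample by title (0 left over). Genes above 1 RPKM in at least 2 libraries were tested on log2(RPKM + 1), which understates changes of low genes, with limma 3.58.1 (trend, R 4.3.3) and Benjamini-Hochberg adjustment, in 1 model of 34 group means with 66 residual degrees of freedom. Limits of 2 on the log2 difference and 2 RPKM on the higher mean follow the study, as does 0.01, which the study's text sets on the p-value and which was set here on the adjusted p. In interactions the RPKM limit applied to the highest of the 4 means. The fit was tested on simulated data. Alternatives covered the pseudocount, the filter, scaling, array weights, the groups fitted, adjustment, a replicate block and leaving out each library.

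The members of this comparison and the gene lists were chosen with earlier results of these data known. Lists came from description words, later trimmed of wrong matches by description alone, and the iron list was added after values were seen. Named genes were the regulators, all members of the cell wall enzyme and pentose lists, the 15 largest annotated rises and falls without overlap between groups (with and without WT replicate 2), and up to 3 called members of each other list.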

Additional observations from a re-analysis of the deposited data

Results flagged for a closer look

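The difference of ∆Tgace2 from WT, called the effect here, varied between conditions for many genes. Against xylan at 72 h, the effect on cellulose at 72 h was higher in 217 genes and lower in 49. Against glucose at 0 h it was higher in 255 and lower in 69. Against cellulose at 24 h it was higher in 146 and lower in 260. Calls on both sides moved with WT replicate 2, and without it these pairs of counts were 299 and 234, 191 and 93, and 431 and 763.

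Single genes with such a difference that was called with and without WT replicate 2 were as follows, each as the log2 effect on cellulose at 72 h minus that elsewhere. OPB45490 (succinate-semialdehyde dehydrogenase) stood at 6.62 against xylan at 72 h and 6.92 against glucose. OPB46883 (expansin-like) stood at 3.58 and 3.60 against the same conditions. OPB46017 (xylanase 1) was at -7.34 and OPB41258 (iron transporter) at -3.76 against xylan at 72 h, where OPB41258 was higher in ∆Tgace2 by 8.52. OPB37206 (4-aminobutyrate aminotransferase) was at -6.002 against xylan at 72 h and -3.12 against cellulose at 24 h. OPB42946 (NF-X1-type zinc finger) was at -3.28 and -3.67 against those conditions.

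Against cellulose at 24 h, the chitinases OPB40629, OPB40749 and OPB37700 were at 6.02, 5.70 and 5.16, and OPB40629 was at 4.95 against glucose. OPB38106 (alpha-N-arabinofuranosidase) was at 4.30 against cellulose at 24 h and 3.19 against glucose. OPB36345, annotated among amino acid transporters, was at -4.73 and -3.95.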

How the results depend on the processing

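The 391 rises and 160 falls moved most with the samples fitted. Fitting the compared groups alone gave 0 rises and 0 falls, and 13 and 9 without WT replicate 2. It gave 214 higher and 4 lower genes against ∆Tgace1, and 54 higher and 6 lower, 8 and 3, and 4 and 0 for the interactions with xylan at 72 h, glucose and cellulose at 24 h. That fit has fewer residual degrees of freedom and takes the spread from those groups alone. Why the counts moved was not tested for this or any other setting. A pseudocount of 0.1 gave 261 falls, 70 genes lower against ∆Tgace1 and 235 higher in the interaction with cellulose at 24 h. Lower genes against ∆Tgace1 numbered 11 with a pseudocount of 2 and 38 with median scaling. Array weights gave 345 and 244 for the interaction with xylan, 113 lower for glucose, and 342 and 671 for cellulose at 24 h. The fit of these weights stopped before its convergence tolerance, so all values with array weights, here and below, are from its last iteration. Without p adjustment 79 genes were lower in the interaction with xylan.

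Leaving out 1 library at a time gave 316 to 551 rises and 156 to 245 falls. The highest counts of rises came without WT replicate 3 (551) and without WT replicate 1 (548), and the highest of falls without WT replicate 1 (245). With WT replicate 2 already out, the ranges were 242 to 445 and 150 to 325, the upper ends without WT replicate 1. Against ∆Tgace1 they were 295 to 409 higher and 14 to 42 lower, with 14 lower without ∆Tgace2 replicate 2 and 34 without ∆Tgace1 replicate 2. For the interactions they were 186 to 325 and 35 to 234 (xylan), 176 to 471 and 48 to 152 (glucose), and 90 to 431 and 87 to 763 (cellulose at 24 h), each extreme set by a WT library on cellulose at 72 h except 186, 35, 176 and 48.

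Of the named genes examined and called with all libraries, 3 changed sign under some setting, as did 10 that were not called. In the comparison without WT replicate 2, 0 called and 6 uncalled genes did. Of the 3, OPB41202 was at -0.48 and OPB41189 at -0.16 with array weights, and OPB39337, which ranged from -0.083 to 3.96 over the libraries left out, was at -0.083 without WT replicate 2. Replicate numbers did not pair the samples (r of deviations of -0.109, -0.0447 and 0.06 for equal numbers). A replicate block gave 399 rises and 161 falls, or 279 and 193 without WT replicate 2. Depth is unknown, so calls near 0 RPKM carry an error that cannot be stated.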
